A study of Mus musculus with 12 samples.

Results

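The genes described here are 33 genes of ribosome biogenesis and the nucleolus, read from a gene count table of 12 mouse bone marrow RNA-seq libraries. They were taken by name: each row whose gene symbol was on the list was used. The list itself was drawn up with earlier results of these data known. All 33 were found among the 54532 genes of the table, and all 33 passed the filter on low counts that left 15003 genes for testing. The list holds 4 genes of RNA polymerase I transcription (Polr1a, Polr1b, Rrn3, Ubtf), 3 of the box C/D snoRNP (Fbl, Nop56, Nop58) and 5 of the box H/ACA snoRNP and snoRNP assembly (Dkc1, Nhp2, Gar1, Nop10, Nolc1). A further 11 belong to the small subunit processome and later small subunit maturation (Utp15, Utp20, Wdr43, Wdr75, Nop14, Rrp9, Nat10, Ddx10, Rrp12, Tsr1, Ltv1), and 7 to large subunit assembly (Bop1, Pes1, Wdr12, Nop2, Nop16, Rrp1, Rrs1). The last 3 encode abundant nucleolar proteins (Ncl, Npm1, Ddx21).

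Ribosomes are built in the nucleolus, where RNA polymerase I transcribes a long precursor rRNA that is cut, chemically modified by small nucleolar ribonucleoproteins (snoRNPs) and folded with ribosomal proteins. Box C/D snoRNPs place ribose methyl groups and box H/ACA snoRNPs place pseudouridines at sites chosen by base pairing of their guide RNA. The small and the large subunit then mature along separate routes of assembly factors, and in blood progenitors these genes are known as targets of the transcription factor MYC and as a marker of growth.

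The libraries were made from Lin-cKit+ hematopoietic stem and progenitor cells (HSPCs), sorted from bone marrow of C57BL/6 mice and never cultured, taken from a competition experiment in living mice after 1 month of treatment. There were 4 groups of 3 libraries: mutant cells under metformin (RH MET), mutant cells under vehicle (RH VEH), wild-type cells under metformin (WT MET) and wild-type cells under vehicle (WT VEH). RH cells carried a Cre-dependent Dnmt3a R878H allele over a wild-type allele (Dnmt3a R878H/+), an arginine substitution in the DNA methyltransferase, and WT cells were Dnmt3a+/+. The stated aim was to learn how metformin, a biguanide drug for diabetes, acts on cells of both genotypes. Mice of all 4 groups carried the Mx1-cre transgene, in which an interferon-inducible promoter drives the recombinase. Per the labels each treatment group had 2 animals, without saying which library came from which, so libraries of a group may share an animal and each p-value measures only the spread between libraries, which may be partly technical.

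Total counts per library ran between 13359583 and 21938003. Levels are given as CPM, counts scaled to a common library size by the trimmed mean of M values (TMM), and the lowest count of any member in any library was 282 (Tsr1 in WT MET 2), for which counting error alone gives an SD of 5.95%. The progenitor marker Kit stood at 118 to 199.9 CPM and the stem cell marker Ly6a at 2.71 to 8.94 CPM. Of the 12 libraries, 6 are the columns that also stand in a smaller deposited table (round 1) and 6 stand in the 12-library table alone (round 2). Each round holds 1 or 2 libraries of every group. The groups with 1 library are RH VEH and WT MET in round 1, and RH MET and WT VEH in round 2. A fit of 1 round alone thus sets 1 library against 2 in each comparison between single groups. In 2 libraries of round 2 the mitochondrial genome took 40.8% (RH VEH 2) and 33.3% (WT MET 2) of the counts, against 1.57% to 4.32% in the other 10. Values per library are always given for libraries 1, 2 and 3 of a group in that order, with the numbers of the table's columns.

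The members spanned a wide range of levels that was much the same in the 4 groups. Per kilobase of gene length, Npm1 (chr11:33152287-33163206, minus strand, mm10 as in the table) stood highest with a mean of 499 CPM per kilobase over the 12 libraries. It was followed by Ncl (chr1:86344719-86359400, minus strand) with 162, Nhp2 with 151 and Nop56 with 89.4 CPM per kilobase. At the low end were Utp15 with 7.94, Utp20 with 7.54 and Wdr12 with 7.37 CPM per kilobase, all 3 encoding parts of large assembly complexes. The nucleolar proteins and most core proteins of both snoRNP classes thus filled most of the upper places. The polymerase subunits Polr1a (8.81) and Polr1b (15.4 CPM per kilobase) stood in the lower part of the order, as did the box C/D core protein Nop58. The order depends on the table's gene lengths as well as on counts. Wdr12, Polr1a, Nop58 and Utp20 were among the longest members, as was Ncl. Whether these lengths match the transcripts present was not tested. In bulk RNA, fewer cells of a type and less RNA per cell cannot be told apart.

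**Figure D1:**
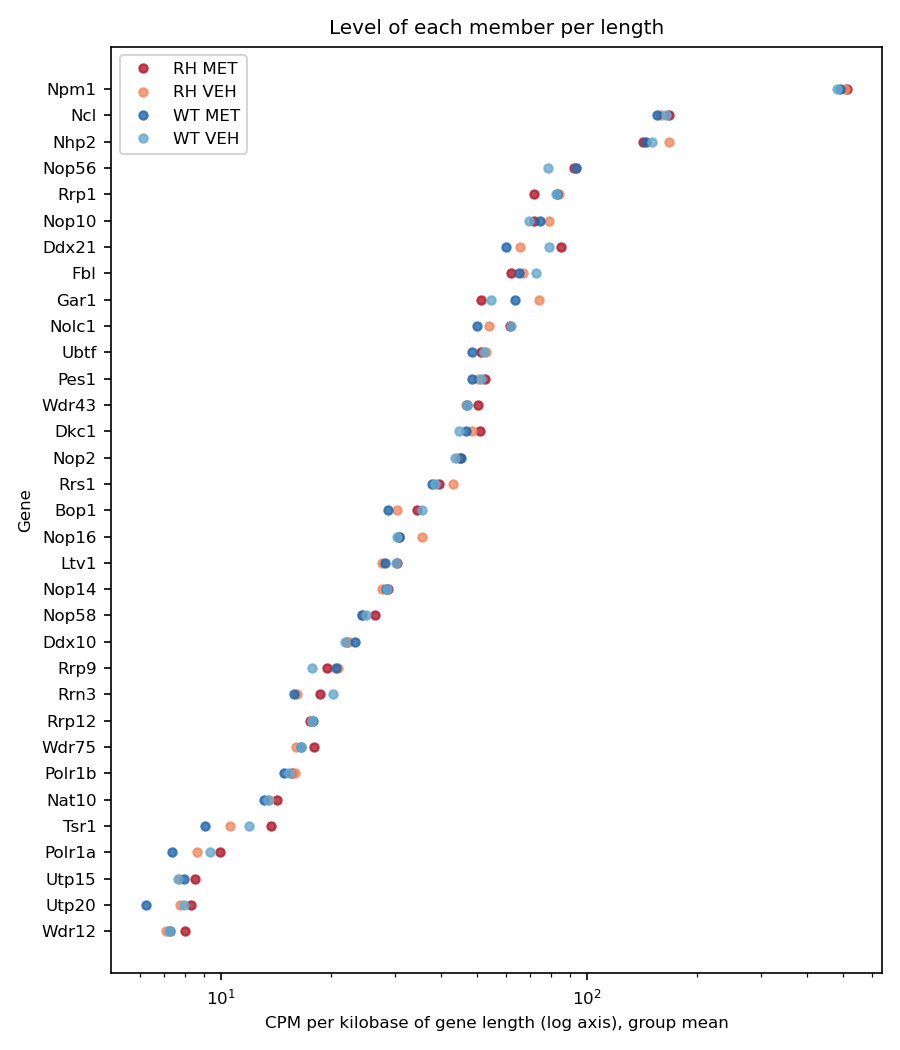
Mean level of each of the 33 members per kilobase of gene length (log axis), with 1 point per group of 3 libraries. Npm1, Ncl and Nhp2 stand highest and Utp15, Utp20 and Wdr12 lowest, and the 4 groups of a gene lie close together beside the spread between genes.

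Within a gene the 12 libraries differed little. The ratio of the highest to the lowest library was 1.23 for Ddx10, an RNA helicase, and 2.99 for Gar1. It was under 1.5 for 15 members, between 1.5 and 2 for 15 and over 2 for 3 (Gar1, Tsr1 and Ddx21). The biological coefficient of variation that edgeR estimated had a median of 0.149 over the members, against 0.223 over all tested genes, of which 15.6% lay below the members' median. Fold changes of the members were therefore measured with standard errors of about 0.15 on the log2 scale in a comparison between single groups, with the extremes 0.11 for Wdr12 and 0.50 for Gar1. The members were not compared with genes of like level, so the low variation is not shown to be particular to them.

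No member passed the test in any of the 7 comparisons that the design allows: the genotypes under each treatment, the treatments in each genotype, the difference between the metformin effects of the genotypes, and the genotype and metformin effects averaged over the other factor. Each was an edgeR quasi-likelihood test over all 15003 genes with the round as a term, called at an adjusted p (Benjamini-Hochberg) under 0.05. DESeq2 on the same genes called 0 of the 33 members in each of the 7 comparisons as well. edgeR called 0% of all genes in 5 of these comparisons and 0.00667% in the other 2. DESeq2 called 0.02% for RH VEH against WT VEH, 0.156% for RH MET against WT MET, 0.00667% for WT MET against WT VEH, 0.113% for the mean genotype effect and 0% in the other 3. Its share for RH MET against WT MET is of the 14130 genes to which it gave an adjusted p. With shares this low, the count of 0 members lies near the background and is no result particular to these genes.

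**Figure D2:**
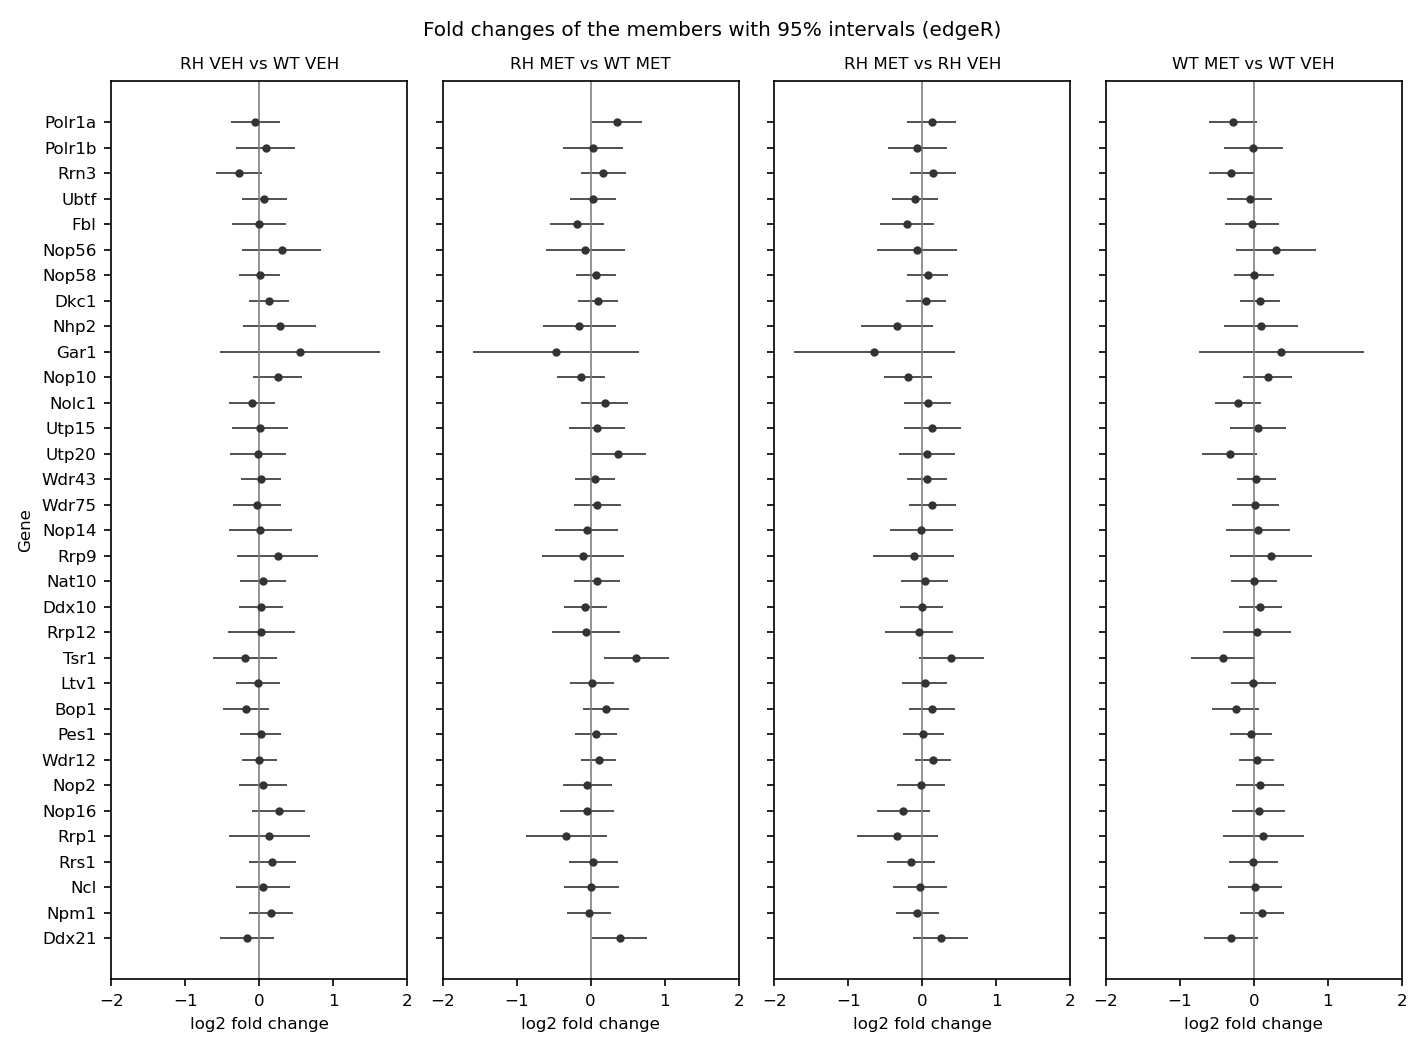
Log2 fold change of each member in the 4 comparisons between single groups, first-named group over the second, with its 95% interval from edgeR (3 libraries a group). All but 4 of the intervals include 0, those 4 being in RH MET against WT MET; the widest are those of Gar1, and the interval farthest from 0 is that of Tsr1 in RH MET against WT MET (0.18 to 1.05).

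Under vehicle the genotypes stood close together. In RH VEH against WT VEH the median log2 fold change of the members was 0.03, against 0.00 over all genes, and 23 of 33 members were above 0. The 95% interval lay within a 2-fold change either way for 32 of 33 members and within 1.5-fold for 26. By edgeR 0 members (0%) were called, against 0% of all genes, and 0 members reached an unadjusted p under 0.05, against 2.03% of all genes. Libraries did not overlap for 2 members, Rrn3 and Ddx21, both lower in RH VEH, where 3.23% of all genes were lower and 2.71% higher without overlap. The member median was -0.07 in round 1 alone and 0.10 in round 2 alone.

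Under metformin, 6 of 33 members had a log2 fold change beyond 0.3 in size between the genotypes, where 38.2% of all genes did, and under vehicle 2 members had, where 31.4% of all genes did. In both comparisons the median standard error was 0.15 over the members and 0.25 over all genes, so these shares are not on an equal footing. RH MET against WT MET had a median log2 fold change of 0.03, against -0.02 over all genes, with 20 of 33 members above 0. edgeR called 0 members against 0.00667% of all genes, and 4 members reached an unadjusted p under 0.05 (Tsr1, Polr1a, Ddx21 and Utp20), against 5.78% of all genes. Those 4 all had higher values in RH MET, with log2 fold changes of 0.62, 0.35, 0.39 and 0.38, and the adjusted p was 0.738 for each in edgeR. RH MET 1 was the highest of the 12 libraries for each of the 4. Without RH MET 1 the median over all members was -0.007. With any 1 library left out, that median lay between -0.027 (without WT MET 1) and 0.119 (without WT MET 2). Libraries did not overlap for Tsr1 and Bop1, both higher in RH MET, beside 7.97% of all genes higher and 8.94% lower without overlap. The interval lay within 2-fold for 31 members and within 1.5-fold for 24. The member median was 0.19 in round 1 alone and -0.03 in round 2 alone. The summed level of the 17 T and NK cell markers did not overlap in this comparison either, at 64.3 to 134 CPM in RH MET and 135 to 169 CPM in WT MET, and its part in these values was not tested.

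Metformin against vehicle moved neither genotype's members past the test. In RH MET against RH VEH the median was -0.01 (all genes -0.01), 16 of 33 members were above 0, and edgeR called 0 members against 0% of all genes, with 0 members against 2.43% of all genes at an unadjusted p under 0.05. Only Wdr12, higher in RH MET, had libraries that did not overlap, where 4.11% of all genes were higher and 2.81% lower without overlap. In WT MET against WT VEH the median was 0.02 (all genes 0.01), 20 of 33 members were above 0, and edgeR called 0 members against 0% of all genes, with 0 members against 4.03% at an unadjusted p under 0.05. Here 5 members had libraries without overlap, all lower in WT MET: Polr1a, Rrn3, Utp20, Bop1 and Ddx21. That is 15.2% of the members, where 4.4% of all genes were lower and 4.98% higher without overlap. Between fits of 1 round alone the medians turned in sign, but each such fit rests on a single library in 1 group. For RH MET against RH VEH the median was 0.14 in round 1 (only RH VEH 1) and -0.11 in round 2 (only RH MET 3). For WT MET against WT VEH it was -0.17 in round 1 (only WT MET 1) and 0.08 in round 2 (only WT VEH 3). Round 2 also holds the libraries rich in mitochondrial transcripts, RH VEH 2 and WT MET 2.

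The difference of the metformin effects (RH MET minus RH VEH, less WT MET minus WT VEH) is the least precise, and the interval lay within 2-fold for 26 members and within 1.5-fold for 11. Its median was -0.04 (all genes -0.02), with 15 of 33 members above 0, and it was 0.21 in round 1 alone and -0.10 in round 2 alone. edgeR called 0 members against 0% of all genes. An unadjusted p under 0.05 was reached by 2 members, against 6.21% of all genes: Tsr1 with 0.81 ± 0.292 and Ddx21 with 0.56 ± 0.246 (log2 difference ± SE), at an adjusted p of 0.648 each in edgeR. The 2 groups that are subtracted here, RH VEH and WT MET, each hold a library rich in mitochondrial transcripts and have only 1 library in round 1. Ddx21 was lowest in those 2 libraries (276 CPM in RH VEH 2 and 257 CPM in WT MET 2), and Tsr1 was lowest in WT MET 2. The part of this imbalance in the values was not tested. Averaged over treatments, the genotype effect had a median of 0.05 (all genes -0.00), with 27 of 33 members above 0 where 49.7% of all genes were. With 1 library left out, that median lay between 0.008 (without RH VEH 2) and 0.080 (without WT MET 2), and it was 0.015 without RH MET 1. The members share the same libraries and are not independent replicates. The largest genotype effect was 0.22 ± 0.137 for Tsr1, and edgeR called 0 members against 0.00667% of all genes, with 0 members against 2.65% at an unadjusted p under 0.05. Averaged over genotypes, the metformin effect had a median of -0.00 (all genes -0.01), edgeR called 0 members against 0% of all genes, and 0 members against 1.63% reached an unadjusted p under 0.05. For both means the interval lay within 1.5-fold for 32 of 33 members. The comparisons share their libraries, so none stands as a repeat of another.

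The 4 members of RNA polymerase I transcription carry out and control synthesis of the precursor rRNA. Polr1a encodes the largest subunit of the polymerase, and it lies at chr6:71909053-71984935, plus strand. Polr1a had 133, 128 and 92.0 CPM in the RH MET libraries, 104, 106 and 96.3 CPM in RH VEH, 93.5, 89.0 and 79.4 CPM in WT MET and 96.2, 133 and 104 CPM in WT VEH. All 3 WT MET libraries were below all 3 WT VEH libraries, by a log2 fold change of -0.28 ± 0.152 (SE), and the RH MET and WT MET libraries overlapped only because RH MET 3 lay below WT MET 1. The log2 fold change of RH MET against WT MET was 0.35 ± 0.153 with an unadjusted p of 0.0382 and an adjusted p of 0.738 in edgeR.

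Rrn3 (chr16:13780708-13814839, plus strand) encodes the factor that brings RNA polymerase I to the rDNA promoter. Rrn3 had 95.9, 77.4 and 67.9 CPM in the RH MET libraries, 67.9, 65.4 and 76.1 CPM in RH VEH, 74.3, 62.2 and 69.2 CPM in WT MET and 85.5, 96.6 and 80.8 CPM in WT VEH. The WT VEH libraries were the high group here: all 3 stood above all RH VEH and all WT MET libraries, while RH MET overlapped every other group. Log2 fold changes were -0.27 ± 0.143 for RH VEH against WT VEH and -0.30 ± 0.142 for WT MET against WT VEH, with unadjusted p of 0.0821 and 0.0543 and adjusted p of 0.977 and 0.876 in edgeR. Both of these comparisons use the same WT VEH libraries.

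Ubtf encodes the HMG-box protein that coats active rDNA. Ubtf had 361, 347 and 302 CPM in the RH MET libraries, 364, 386 and 295 CPM in RH VEH, 304, 328 and 322 CPM in WT MET and 394, 339.7 and 295 CPM in WT VEH. Its groups overlapped in each comparison, and its log2 fold changes between single groups lay between -0.10 (RH MET against RH VEH) and 0.07 (RH VEH against WT VEH). Polr1b, which encodes the other large polymerase subunit, ranged over 72.6 to 109 CPM, with a log2 fold change of at most 0.09 ± 0.183 between single groups.

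Fbl is the rRNA ribose methyltransferase of the box C/D snoRNP, and Nop56 and Nop58 are its scaffold partners. Nop56 and Nop58 also carry box C/D snoRNA genes in their introns. Of the 33 members, 6 host annotated snoRNA genes (18.2%), with 18 snoRNA genes between them: 5 in Nop56, 4 in Nop58, 3 each in Wdr43 and Ncl, 2 in Tsr1 and 1 in Dkc1. Among all tested protein-coding genes 207 of 12556 (1.65%) host one. One intronic snoRNA of each of 5 hosts is printed here 5′ to 3′ from the mm10 genome with GENCODE M21 positions, chosen because each holds both sequence boxes of the box C/D class. The capitals mark TGATG, the box C core, and the last CTGA, box D.
Snord110, in Nop56 (chr2:130275506-130275573, plus strand): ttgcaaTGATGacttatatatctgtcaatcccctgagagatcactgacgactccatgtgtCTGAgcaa
Snord11, in Nop58 (chr1:59704790-59704873, plus strand): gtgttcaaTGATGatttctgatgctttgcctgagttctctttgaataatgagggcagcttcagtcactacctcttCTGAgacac
Snord82, in Ncl (chr1:86356261-86356330, minus strand): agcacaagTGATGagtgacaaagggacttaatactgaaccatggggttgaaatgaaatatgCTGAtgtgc
Snord92, in Wdr43 (chr17:71631281-71631365, plus strand): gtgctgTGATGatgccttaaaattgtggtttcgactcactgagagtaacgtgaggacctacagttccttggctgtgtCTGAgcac
Snord91a, in Tsr1 (chr11:74905424-74905516, plus strand): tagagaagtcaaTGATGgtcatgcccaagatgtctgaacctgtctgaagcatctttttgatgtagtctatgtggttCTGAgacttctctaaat
The box C core begins at base 7 of Snord110 and Snord92, at base 9 of Snord11 and Snord82 and at base 13 of Snord91a. Counts on these snoRNA genes were very low: over all 12 libraries they summed to 108 for Snord110, 101 for Snord91a, 17 for Snord11, 5 for Snord92 and 4 for Snord82. Their levels could not be compared at this depth, and the host genes' counts are what is described here.

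Nop56 had 424, 407 and 303 CPM in the RH MET libraries, 352, 528 and 269 CPM in RH VEH, 366, 469 and 315 CPM in WT MET and 368, 325 and 273 CPM in WT VEH. The highest libraries were the 2 rich in mitochondrial transcripts, RH VEH 2 and WT MET 2, and the groups overlapped in each comparison. The log2 fold changes were 0.30 ± 0.247 for RH VEH against WT VEH and 0.30 ± 0.247 for WT MET against WT VEH, and both intervals, -0.23 to 0.84 and -0.23 to 0.84, include 0. Fbl had 282, 267 and 236 CPM in the RH MET libraries, 341, 286 and 219.7 CPM in RH VEH, 291, 276 and 258 CPM in WT MET and 405, 272 and 238 CPM in WT VEH. For Fbl the single high library was WT VEH 1, and RH MET against WT MET gave -0.18 ± 0.167. Nop58 varied less, over 239 to 319 CPM, with log2 fold changes between 0.00 and 0.08.

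The box H/ACA group pairs the pseudouridine synthase Dkc1, the protein mutated in human dyskeratosis congenita, with 3 small core proteins that are also part of telomerase. Dkc1 had 236, 198 and 196 CPM in the RH MET libraries, 205, 199 and 195 CPM in RH VEH, 195, 198 and 187 CPM in WT MET and 165, 208 and 180.4 CPM in WT VEH. Its lowest library was WT VEH 1 and its highest RH MET 1, and log2 fold changes between single groups lay between 0.05 and 0.14. The core proteins behaved less evenly. Gar1 (chr3:129824912-129831396, minus strand) had the widest spread of all 33 members. Gar1 had 109.7, 95.5 and 59.3 CPM in the RH MET libraries, 153, 170.0 and 57.8 CPM in RH VEH, 81.9, 173 and 71.7 CPM in WT MET and 129.6, 81.8 and 69.7 CPM in WT VEH. Both libraries rich in mitochondrial transcripts were the highest of the 12, and the lowest were RH VEH 3 and RH MET 3. RH MET against WT MET gave -0.47 ± 0.500 over all libraries, and the sign turned without WT MET 2, when the value was 0.073. The difference of the metformin effects was -1.02 ± 0.727, with an interval of -2.66 to 0.62. With no filter on low counts that difference was -0.91 at an adjusted p of 0.0438 in edgeR, against an adjusted p of 0.662 with the filter.

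Nhp2 and Nop10 are the other 2 core proteins. Nhp2 had 181, 166 and 144 CPM in the RH MET libraries, 232, 222 and 121 CPM in RH VEH, 172, 163 and 164 CPM in WT MET and 240.0, 153 and 125 CPM in WT VEH. Nop10 had 83.2, 76.4 and 79.1 CPM in the RH MET libraries, 112, 79.1 and 71.1 CPM in RH VEH, 89.8, 76.1 and 82.2 CPM in WT MET and 92.3, 69.9 and 68.8 CPM in WT VEH. In both genes RH VEH 1 and WT VEH 1 were among the 3 highest libraries and WT VEH 3 among the 3 lowest, and the groups overlapped in each comparison. RH VEH against WT VEH gave 0.28 ± 0.227 for Nhp2 and 0.25 ± 0.152 for Nop10, and RH MET against RH VEH gave -0.34 ± 0.225 and -0.20 ± 0.151. The genotype values rest on single libraries: for RH VEH against WT VEH, Nhp2 gave 0.083 without RH VEH 2 and 0.50 without WT VEH 1, and Nop10 gave 0.051 without RH VEH 1. With the length trend of all genes removed, a step added after seeing the data, they were 0.15 for Nhp2 and 0.13 for Nop10. Nolc1, a chaperone that escorts snoRNPs into the nucleolus, ranged over 204 to 342 CPM and gave 0.19 ± 0.146 for RH MET against WT MET and -0.21 ± 0.145 for WT MET against WT VEH. Over the 5 genes of this group the median log2 fold change was 0.25 for RH VEH against WT VEH and -0.13 for RH MET against WT MET.

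Among the 11 small subunit factors, Tsr1 (chr11:74898071-74909342, plus strand) stood farthest from the others. It encodes a late assembly factor that in yeast blocks early joining of the subunits. Tsr1 had 60.7, 52.9 and 44.7 CPM in the RH MET libraries, 36.6, 36.3 and 49.3 CPM in RH VEH, 34.3, 28.6 and 41.4 CPM in WT MET and 38.0, 48.0 and 51.8 CPM in WT VEH. All 3 RH MET libraries lay above all 3 WT MET libraries, and the lowest library of the 12 was WT MET 2. The log2 fold change of RH MET against WT MET was 0.62 ± 0.202, with a 95% interval of 0.18 to 1.05, an unadjusted p of 0.00933 and an adjusted p of 0.738 in edgeR. It was 0.73 in round 1 alone and 0.37 in round 2 alone, between 0.51 and 0.83 with any 1 library left out, and 0.52 without the 2 libraries rich in mitochondrial transcripts. Without a filter on low counts, when 27530 genes enter the fit, it was 0.68 at an adjusted p of 0.0415, the single setting tried in which edgeR called a member in a comparison between 2 groups. That setting called 1.31% of all genes in this comparison (362 of 27530), against 0.00667% with the filter. The 2 metformin effects of Tsr1 had opposite signs, 0.39 ± 0.202 in RH cells and -0.41 ± 0.198 in WT cells, and their difference did not pass the adjusted test.

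Tsr1 also shares ground with a neighbour. The protein-coding gene Srr overlaps it on the opposite strand, and Srr's own count came to 16.4% of that of Tsr1 over all libraries. Small RNA genes aside, 11 members overlap another annotated gene. For Polr1a, Nop14 and Ddx10 these are only pseudogenes or antisense RNAs. Protein-coding partners include Mpp1 for Dkc1 (63.3%), Mroh1 and Scx for Bop1 (36.3%), Idh3b for Nop56 (35.7%) and Rmnd5b for Nhp2 (25.2%). These percents compare counts of whole genes, and the extent of the shared bases was not measured. The sources used here do not state how counting used strand. How reads within the shared bases were assigned is therefore not known.

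Utp20 (chr10:88746607-88826804, minus strand) encodes a long scaffold protein of the processome, the early particle that cuts the small subunit rRNA. Utp20 had 101, 83.4 and 68.3 CPM in the RH MET libraries, 66.4, 85.2 and 84.5 CPM in RH VEH, 69.9, 62.7 and 58.8 CPM in WT MET and 70.9, 90.8 and 81.3 CPM in WT VEH. All 3 WT MET libraries were below all 3 WT VEH libraries, and RH MET and WT MET overlapped by a single pair, RH MET 3 and WT MET 1. RH MET against WT MET gave 0.38 ± 0.173 and WT MET against WT VEH -0.32 ± 0.171. Rrp9 binds the U3 snoRNA that docks the processome on its substrate. Rrp9 had 66.8, 57.1 and 47.5 CPM in the RH MET libraries, 60.0, 81.5 and 42.4 CPM in RH VEH, 53.4, 75.5 and 52.8 CPM in WT MET and 63.6, 43.7 and 49.1 CPM in WT VEH. As for Nop56, the 2 libraries rich in mitochondrial transcripts were the highest, and WT MET against WT VEH gave 0.23 ± 0.253, a value of -0.017 in round 1 alone.

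The other 8 small subunit genes varied little between groups. Utp15, Wdr43 and Wdr75 belong to the complex that joins rRNA transcription to processing, and they ranged over 36.2 to 54.3 CPM, 146 to 189 CPM and 72.6 to 101 CPM. Nat10, the cytidine acetyltransferase of the small subunit rRNA, ranged over 84.7 to 120.5 CPM, and Nop14 over 61.5 to 96.8 CPM. The helicase Ddx10 had the narrowest range of all members, 63.2 to 77.4 CPM. Rrp12, an export factor, covered 61.9 to 103 CPM with its highest value in WT MET 2, and the late factor Ltv1 54.6 to 80.6 CPM. Over these 8 genes no log2 fold change between single groups lay beyond 0.14 in size (Wdr75 in RH MET against RH VEH).

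In large subunit assembly, Pes1, Bop1 and Wdr12 form a complex that is needed to process the large subunit rRNA. Bop1 (chr15:76452989-76477277, minus strand) had separated groups in 2 comparisons, and Wdr12 in 1. Bop1 had 115, 99.0 and 91.3 CPM in the RH MET libraries, 92.8, 81.9 and 93.3 CPM in RH VEH, 85.2, 79.1 and 90.3 CPM in WT MET and 127, 96.7 and 90.5 CPM in WT VEH. All RH MET libraries were above all WT MET libraries, and all WT MET libraries were below all WT VEH libraries, but the nearest pairs lay close: RH MET 3 beside WT MET 3, and WT MET 3 beside WT VEH 3. The log2 fold changes were 0.20 ± 0.144 and -0.25 ± 0.144, with unadjusted p of 0.184 and 0.114 in edgeR. Wdr12 had 101, 90.9 and 93.8 CPM in the RH MET libraries, 85.7, 85.3 and 82.6 CPM in RH VEH, 92.2, 87.0 and 81.2 CPM in WT MET and 88.1, 88.7 and 81.3 CPM in WT VEH. Wdr12 had the smallest standard errors of the list; all 3 RH MET libraries stood above the RH VEH libraries, by 0.15 ± 0.110. Pes1, with 134 to 176 CPM, gave log2 fold changes between -0.03 and 0.07 in the same 4 comparisons.

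Rrp1 and Nop16 act on the same early large subunit particle, as described in yeast. Rrp1 had 269, 248 and 199.7 CPM in the RH MET libraries, 306, 343 and 193 CPM in RH VEH, 274, 349 and 208 CPM in WT MET and 363, 259 and 204 CPM in WT VEH. The 4 libraries numbered 3 were the lowest, and WT VEH 1, WT MET 2 and RH VEH 2 the highest, so the groups overlapped throughout. RH MET against WT MET gave -0.33 ± 0.251 and RH MET against RH VEH -0.34 ± 0.249. Nop16 had 61.6, 55.8 and 51.9 CPM in the RH MET libraries, 74.8, 70.7 and 51.3 CPM in RH VEH, 53.7, 59.6 and 56.8 CPM in WT MET and 66.4, 48.8 and 52.6 CPM in WT VEH. Here RH VEH 1 and 2 stood highest, RH VEH against WT VEH gave 0.27 ± 0.166 and RH MET against RH VEH -0.25 ± 0.166, with intervals that include 0. Nop2, an rRNA cytosine methyltransferase, ranged over 108 to 148 CPM, and Rrs1, which helps bring in the smallest rRNA of the large subunit, over 69.9 to 102 CPM.

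The 3 abundant nucleolar proteins are Ncl (nucleolin), which binds nascent rRNA, Npm1 (nucleophosmin), a nucleolar chaperone mutated in human acute myeloid leukaemia, and the helicase Ddx21. Ncl had 2103, 1617 and 1404 CPM in the RH MET libraries, 1686, 1801 and 1383 CPM in RH VEH, 1668, 1715 and 1373 CPM in WT MET and 1907, 1767 and 1362 CPM in WT VEH. Npm1 had 1588, 1278 and 1241 CPM in the RH MET libraries, 1476, 1417 and 1158 CPM in RH VEH, 1496, 1257 and 1186 CPM in WT MET and 1424, 1330.3 and 1111 CPM in WT VEH. In both genes the 4 libraries numbered 3 were the lowest of the 12 and RH MET 1 the highest, whatever the genotype or treatment. Group means of Npm1 were 1369 ± 190.4 CPM in RH MET, 1350.4 ± 169 CPM in RH VEH, 1313 ± 162 CPM in WT MET and 1288 ± 161 CPM in WT VEH (SD, n = 3 each). RH VEH against WT VEH gave 0.16 ± 0.136 for Npm1 and 0.05 ± 0.169 for Ncl, and RH MET against WT MET gave -0.02 ± 0.135 and 0.01 ± 0.169.

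Ddx21 (chr10:62580251-62602281, minus strand) resolves snoRNA and rRNA duplexes and also binds RNA polymerase II genes. Ddx21 had 542, 446 and 329 CPM in the RH MET libraries, 357, 276 and 388 CPM in RH VEH, 366, 257 and 311 CPM in WT MET and 402, 437 and 388 CPM in WT VEH. RH VEH and WT MET were both the lower groups beside WT VEH, without overlap in either case, although RH VEH 3 came within 1 CPM of the lowest WT VEH library. RH MET spread most widely, with its library 3 at the level of the WT MET libraries. The log2 fold changes were 0.39 ± 0.169 for RH MET against WT MET (unadjusted p 0.0389, adjusted p 0.738 in edgeR), 0.25 ± 0.170 for RH MET against RH VEH, -0.17 ± 0.168 for RH VEH against WT VEH and -0.31 ± 0.167 for WT MET against WT VEH. WT MET 2 and RH VEH 2, the 2 libraries rich in mitochondrial transcripts, were its lowest.

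**Figure D3:**
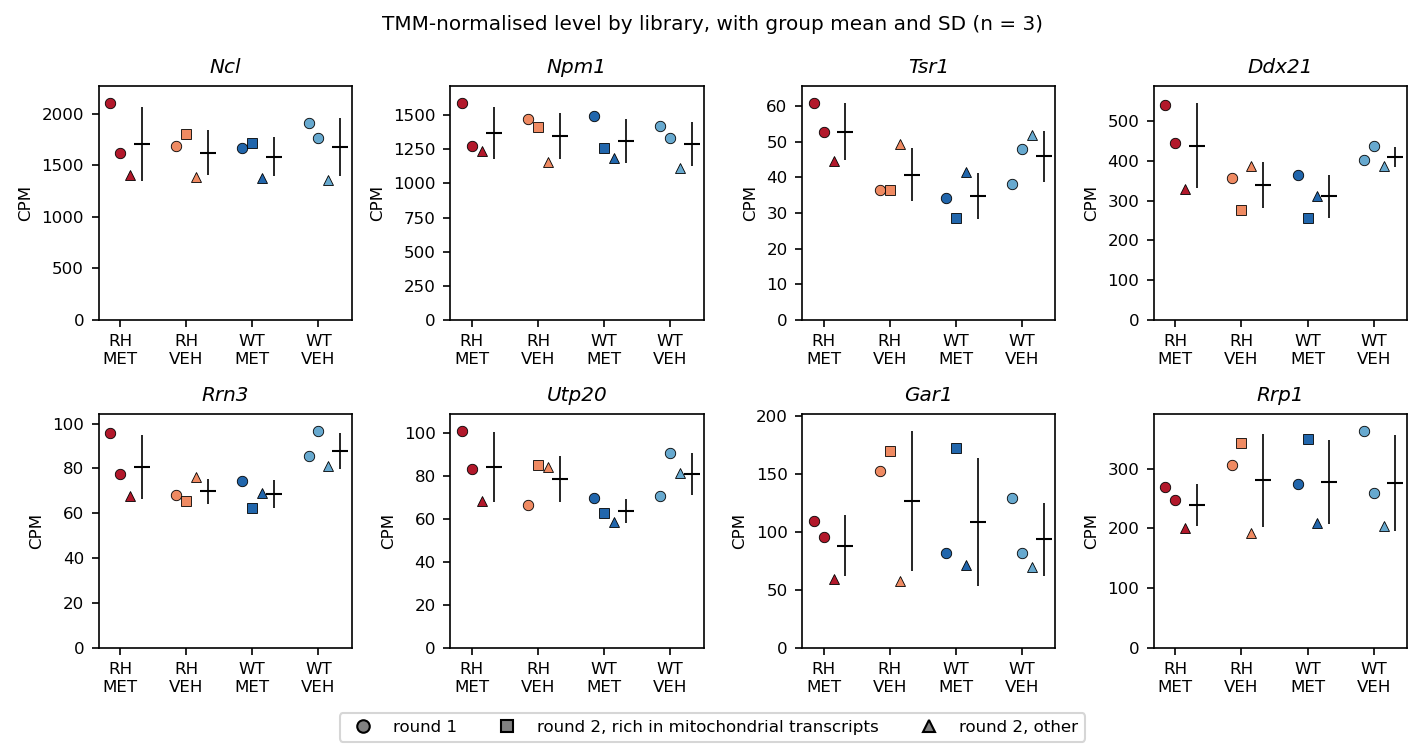
TMM-normalised CPM of 8 members in each library, by group, with the group mean and SD (n = 3) to the right of the points. Symbols mark the round and the 2 libraries rich in mitochondrial transcripts: Gar1 and Rrp1 are high and Tsr1 and Ddx21 low in WT MET 2, and Ncl and Npm1 are lowest in each group in its library 3.

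The common level of the members differed more between libraries of a group than between groups. The mean log2 deviation of the 33 members from their own 12-library means was 0.24, 0.05 and -0.15 in RH MET, 0.06, 0.12 and -0.16 in RH VEH, -0.03, 0.03 and -0.17 in WT MET and 0.11, 0.05 and -0.14 in WT VEH. In each group library 3 was thus the low one, and RH MET 1 stood above the other 11. All 33 members were above their own mean in RH MET 1, whereas 4, 4, 2 and 6 were in library 3 of RH MET, RH VEH, WT MET and WT VEH. The lowest library was one of these 4 for 22 members, WT MET 2 for 6 and another for 5, and the highest was RH MET 1 for 14. The pooled SD of the deviation within groups was 0.15, above the member median of each of the 7 comparisons.

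**Figure D4:**
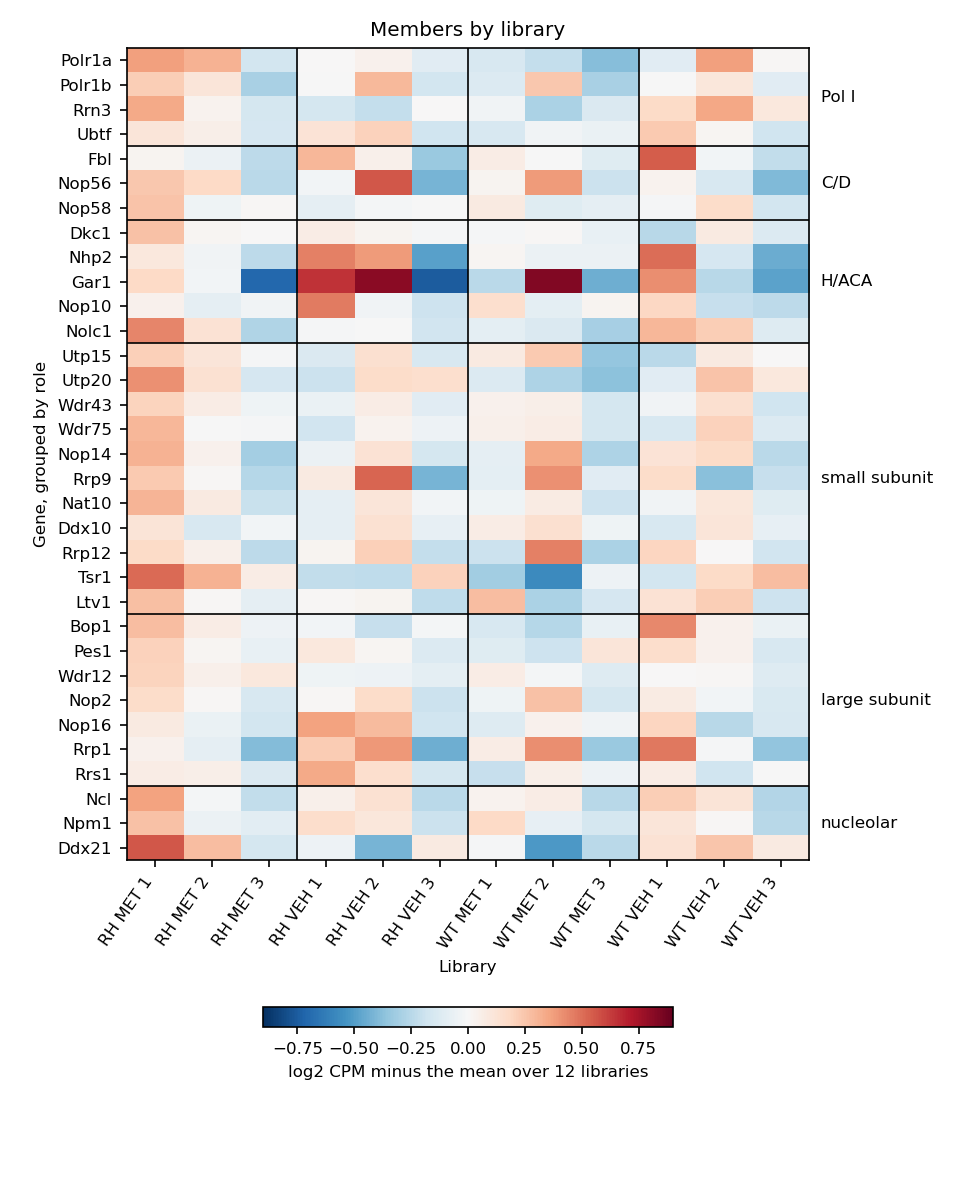
Log2 CPM of each member minus its mean over the 12 libraries (colour), with members in rows by role and libraries in columns by group. The column of RH MET 1 is above the mean for all 33 members, library 3 of each group is mostly below it, and Gar1 has the widest range.

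Those 4 libraries belong to round 2. Round 2 against round 1, fitted with the groups, had a median log2 fold change of -0.13 over the members and 0.01 over all genes, with 31 of 33 members below 0. edgeR called 0 members lower, against 0.0333% of all genes lower and 0.0467% in either direction, and 6 of 33 members reached an unadjusted p under 0.05, where 14.4% of all genes did. Beside this, the summed level of the 10 stromal and endothelial markers was 676 to 1050 CPM in the 4 libraries numbered 3 and 87.5 to 325 CPM in the other 8. The summed level of the 17 granulocyte markers was 5387 to 7962 CPM in the 4 libraries, 1571 to 1668 CPM in the 2 rich in mitochondrial transcripts and 3715 to 5617 CPM in the other 6. The 12 monocyte and macrophage markers summed to 802 to 1153 CPM in the 4 libraries, 265 to 370 CPM in the 2 rich in mitochondrial transcripts and 492 to 688 CPM in the other 6. The 12 megakaryocyte markers summed to 1612 and 2069 CPM in the 2 libraries rich in mitochondrial transcripts (RH VEH 2 and WT MET 2), against 651 to 1159 CPM in the other 10. No marker of these lists was at 0 in all libraries. By group, the stromal sum spanned 131 to 676 CPM in RH MET, 87.9 to 777 in RH VEH, 120 to 802 in WT MET and 87.5 to 1050 in WT VEH. The 12 stem and multipotent progenitor markers summed to 448 to 553 CPM in the 4 libraries and 351 to 439 CPM in the other 8. The 14 mitotic markers summed to 3593 to 3914 CPM in the 4 libraries. They summed to 4112 to 4403 CPM in the 2 rich in mitochondrial transcripts and 3762 to 5092 CPM in the other 6. The part of these cell types and of cell division in the members' levels was not tested.

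Fold changes were ordered by gene length among the members, to a degree that depended on single libraries and on the round. Gene lengths in the table ran from 1109 bases (Nop10) to 11955 bases (Wdr12), with a median of 4099. Spearman's rho between log2 fold change and length over the 33 members was -0.50 for RH VEH against WT VEH, 0.57 for RH MET against WT MET, 0.57 for RH MET against RH VEH and -0.51 for WT MET against WT VEH. Over all 15003 genes it had the same sign and was weaker, at -0.19, 0.25, 0.22 and -0.24. These are correlations across genes that share the same libraries, so genes are not independent replicates. Without RH VEH 1, rho over the members was -0.13 for RH VEH against WT VEH and 0.26 for RH MET against RH VEH, and without WT VEH 2 it was -0.24 for WT MET against WT VEH. For RH MET against WT MET it was at least 0.43 with any 1 library left out, but 0.27 in round 1 alone and 0.38 in round 2 alone. In round 1 alone and round 2 alone it was -0.53 and -0.31 for RH VEH against WT VEH, 0.63 and 0.06 for RH MET against RH VEH, and -0.08 and -0.47 for WT MET against WT VEH. In RH MET against WT MET, 14 of the 16 members longer than the median were above 0 (median 0.09), against 6 of the other 17 (median -0.05). In RH VEH against WT VEH the order was turned, with a median of 0.00 for the longer and 0.14 for the shorter members.

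The same contrast can be read in each library. The mean deviation of the longer members minus that of the shorter was 0.09, 0.06 and 0.04 in RH MET, -0.16, -0.15 and 0.14 in RH VEH, -0.00, -0.11 and -0.09 in WT MET and -0.10, 0.19 and 0.10 in WT VEH. It had the sign of the same contrast over all genes in 12 of 12 libraries, with a largest gap of 0.06. With the length trend of all genes removed from each library, a step added after seeing the data, rho over the members was -0.14 for RH VEH against WT VEH and -0.03 for RH MET against WT MET. Tsr1 then gave 0.64 for RH MET against WT MET (adjusted p 0.792 in edgeR), and its length of 3837 bases is near the median. Polr1a, among the longest members with 11871 bases, gave 0.22 in that fit beside 0.35 in the fit without the step.

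**Figure D5:**
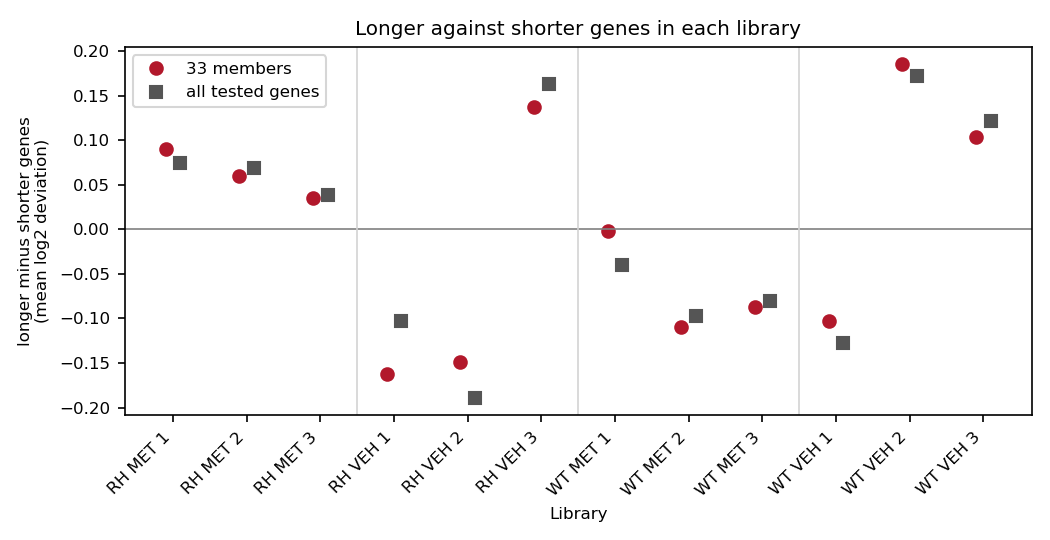
Mean log2 deviation of genes longer than the median member minus that of shorter genes, in each library, for the 33 members and for all tested genes. The 2 sets have the same sign in 12 of 12 libraries; the 3 RH MET libraries are above 0 and the 3 WT MET libraries below it, while both vehicle groups hold libraries of either sign.

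Other genes of the same pathway did not pass the test either. Of 119 listed genes found in the table (other small and large subunit factors, RNA polymerase I subunits and partners, snoRNP assembly factors and the RNA exosome), 118 were tested, and edgeR called 0 of them in any of the 7 comparisons. Their median log2 fold changes were 0.04 for RH VEH against WT VEH, 0.02 for RH MET against WT MET, 0.03 for RH MET against RH VEH and 0.03 for WT MET against WT VEH. An unadjusted p under 0.05 was reached by 2, 7, 0 and 6 of the 118 in these comparisons, where 2.03%, 5.78%, 2.43% and 4.03% of all genes did, and by 15 for the difference of the metformin effects, where 6.21% of all genes did. The RNA exosome, which trims rRNA precursors, was the list with the largest median differences: over its 12 tested genes 0.23 for RH VEH against WT VEH, -0.14 for RH MET against WT MET and -0.47 for the difference of the metformin effects. The lists held between 9 and 46 tested genes. In the same 3 comparisons the medians were 0.00, -0.02 and -0.02 over all genes, and 0.06, -0.11 and -0.16 over all genes of at most 4099 bases. The part of gene length in the exosome values was not tested. Exosc5, the exosome gene of smallest p for the difference of the metformin effects, gave -0.62 ± 0.269 at an adjusted p of 0.648 in edgeR. Among the other 38 small subunit factors, Imp4 gave 0.33 ± 0.121 and Heatr1 0.43 ± 0.158 for RH MET against WT MET, both at an adjusted p of 0.738 in edgeR.

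Myc, which encodes the transcription factor best known for driving these genes, stood at 113, 135 and 146 CPM in RH MET, 109.8, 117 and 139 CPM in RH VEH, 116, 128 and 132 CPM in WT MET and 74.1, 94.2 and 127 CPM in WT VEH. The low libraries were WT VEH 1 and 2, and WT VEH 3 lay within the range of the other groups. Its mean metformin effect was 0.24 ± 0.102 on the log2 scale, with an unadjusted p of 0.0373 and an adjusted p of 1 in edgeR. The E-box that MYC binds, CACGTG, which reads the same on both strands, was looked for in the 250 bases before the start of each gene with a RefSeq promoter (GRCm38.p6). It was found in 2 of 28 members (7.14%), against 8.19% of 13218 promoters of tested genes and 6.02% of all 32851 promoters. The part of both promoters that holds it near the start is printed 5′ to 3′, with the motif in capitals.
Rrn3 (chr16:13780599-13780698, plus strand): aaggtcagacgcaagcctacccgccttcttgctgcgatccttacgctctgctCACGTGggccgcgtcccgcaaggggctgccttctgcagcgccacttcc
Nop2 (chr6:125131783-125131882, plus strand): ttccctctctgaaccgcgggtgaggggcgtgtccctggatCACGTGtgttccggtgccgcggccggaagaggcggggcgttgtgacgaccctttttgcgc
The motif begins 48 bases before the start in Rrn3, which holds another at 215 bases, and 60 bases before the start in Nop2. The share of members with the motif was thus close to that of all tested genes, and a match of letters in this window is a description only.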

How the data were processed

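RNA from sorted Lin-cKit+ cells was made into libraries with the NEBNext Ultra RNA kit and sequenced as paired reads of 150 bases on a NovaSeq 6000, per the labels' protocols. The deposited values are raw counts per gene, which the authors made with STAR 2.5, HTSeq 0.6.1 and the mm10 genome, per the submitters' processing notes; strand use and the handling of reads with several matches are not given in the sources used here. The 12-library table was analysed, and 2 columns of the smaller table were not used. Group is known for all 12 columns. For 7 of them the column's number differs from, or cannot be tied to, the numbers of the sample titles. Library numbers are therefore those of the columns. The members and lists were chosen with earlier results of these data known.

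Genes were filtered with filterByExpr, scaled by TMM and tested with edgeR 4.0.16 (R 4.3.3) by the robust quasi-likelihood test, with 4 group means and the round as terms over all 12 libraries, and Benjamini-Hochberg adjustment over 15003 genes at 0.05. Intervals are 95% and rest on a median of 12.6 degrees of freedom. Depth limits the precision little, since the lowest count of a member was 282. The genes named with values in every library were the 8 leading genes of the role groups and up to 3 per direction of smallest p in each comparison between single groups, by rule. Alternatives were DESeq2 1.42.0, its size factors, no filter, each library left out, the rounds apart, no round term, a replicate block, 2 groups alone, no mitochondrial genes, no libraries rich in mitochondrial transcripts and, added after seeing the data, removal of the length trend. Sequences come from GENCODE M21 with mm10 and from RefSeq promoters (GRCm38.p6), which matched 28 of 33 members.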

Additional observations from a re-analysis of the deposited data

How the results depend on the processing

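No member was called in any alternative except with no filter on low counts, when edgeR called 1 member for RH MET against WT MET (Tsr1) and 1 for the difference of the metformin effects (Gar1). That setting called 1.31% and 1.57% of its 27530 genes in these comparisons, against 0.00667% and 0% with the filter, and the cause was not tested. Of 618 values of named members under the alternatives, 613 kept their direction and their side of the threshold, but sizes were less stable: 17 of the 27 fold changes behind these values moved by over 1.5 times with at least 1 library left out. The sign turned for Gar1 in RH MET against WT MET (0.33 in round 1 alone, 0.020 without the 2 libraries rich in mitochondrial transcripts, and between -0.90 without WT MET 1 and 0.073 without WT MET 2 with single libraries left out) and for Rrp9 in WT MET against WT VEH (-0.017 in round 1 alone). The member median moved by more than the spread between libraries (0.15) in round 1 alone, to 0.19 for RH MET against WT MET, -0.17 for WT MET against WT VEH and 0.21 for the difference, which was 0.12 without the 2 libraries rich in mitochondrial transcripts.

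Counts of all genes called were 0 or 1 and unstable. In the order RH VEH against WT VEH, RH MET against WT MET, RH MET against RH VEH, WT MET against WT VEH, difference, mean genotype and mean metformin effect, no filter gave 175, 362, 229, 218, 431, 119 and 63. DESeq2 gave 3 for RH VEH against WT VEH, 22 for RH MET against WT MET, 1 for WT MET against WT VEH and 17 for the mean genotype effect. Round 1 alone gave 2 for RH VEH against WT VEH, 0 for RH MET against WT MET, 3 for RH MET against RH VEH, 3 for the difference and 2 for each mean effect, and round 2 alone gave 0 for RH MET against WT MET and for the mean genotype effect. Without the 2 libraries rich in mitochondrial transcripts the counts were 3 for RH VEH against WT VEH, 1 for RH MET against RH VEH, 1 for the difference and 3 for the mean genotype effect. RH MET against WT MET gave 0 with no round term and 0 with only its 2 groups. With each library left out in turn the counts ran between 0 and 2 for RH VEH against WT VEH, 0 and 2 for RH MET against WT MET, 0 and 1 for RH MET against RH VEH, 0 and 1 for the difference and 1 and 2 for the mean genotype effect.

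The column numbers were not taken as pairs, since for 7 of the 12 columns they differ from, or cannot be tied to, the numbers of the labels. Correlations of same-numbered deviations were 0.217, 0.121 and 0.489 for RH VEH against WT VEH, and at least 1 of 3 was under 0.1 in each other comparison. A replicate block in place of the round gave 2 genes for RH VEH against WT VEH, 0 members in each comparison, and member medians of -0.01, 0.10, 0.06, -0.02, 0.06, 0.05 and -0.01.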
